A study of Bos taurus with 12 samples.

Results

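Bovine blastocysts grown from immature oocytes that had been placed into a dominant follicle of a recipient heifer (IFOT-IM, intrafollicular oocyte transfer) were compared with blastocysts that had developed wholly inside superovulated and inseminated heifers (VIVO). The comparison used 6 of the 12 arrays of the series, 3 per group, and the other groups were blastocysts from transferred oocytes that had been matured in vitro (IFOT-M) and blastocysts produced entirely in vitro (VITRO). Each array held RNA from a separate pool of 15 to 20 expanded blastocysts flushed from the uterus or taken from culture, so the spread between arrays is that between pools. In the transfer groups the most advanced embryo of each recipient was set aside as likely her own, and pools can still hold a few such embryos. The transferred oocytes came with their cumulus cells from slaughterhouse ovaries and matured in the follicles of synchronised Simmental heifers, while the VIVO heifers, also Simmental, were superovulated with FSH, and semen of 1 bull served all groups. Oocyte source, the transfer itself and the hormone treatment therefore differ together between IFOT-IM and VIVO and cannot be told apart.

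In intrafollicular transfer the oocyte matures, ovulates, is fertilized and cleaves in the recipient, so that it leaves the follicle, the oviduct and the uterus to the animal and only the collection and injection of the oocyte to the laboratory. The bovine blastocyst has an outer trophectoderm, which will form the placenta, and an inner cell mass that separates into epiblast and hypoblast. It imports amino acids, makes sterols and fatty acids for new membranes, and secretes glycoproteins that pass through the endoplasmic reticulum (ER) and Golgi. Defining markers of the blastocyst were present on all 6 arrays. KRT18, a trophectoderm keratin, had a log2 signal of 8.104, 8.51 and 8.67 in IFOT-IM, against 8.72, 8.87 and 8.78 in VIVO, and the values of GATA6, a hypoblast factor, were 7.87, 7.98 and 8.19 in IFOT-IM and 8.37, 8.298 and 8.33 in VIVO. POU5F1, the pluripotency factor, read 5.25, 5.45 and 5.80 in IFOT-IM and 5.76, 6.05 and 5.66 in VIVO. CDX2 and SOX17, defining factors of trophectoderm and hypoblast, had low signals on all 6 arrays.

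Of 26773 probe sets, the 24415 with the highest mean were tested with limma in 1 fit of all 12 arrays. Probe sets that differed by more than 2-fold were called differentially expressed genes (DEGs) where the raw p was below 0.05 and the false discovery rate (FDR) below 0.1, and those past the FDR alone were counted as changed at any fold. IFOT-IM differed from VIVO by 632 DEGs, which is 2.59% of the probe sets tested, 492 of them lower (2.02%) and 140 higher (0.573%). At any fold 5023 probe sets changed (20.6%), 3082 lower (12.6%) and 1941 higher (7.95%). With each of 17136 genes counted once by its brightest probe set, 20.5% changed, 14.6% lower and 5.91% higher. The 3 IFOT-IM arrays lay wholly on one side of the 3 VIVO arrays for 612 of the 632 DEGs, and for 36.3% of all probe sets. The directions were unevenly spread over the kinds of probe set. Among DEGs with exactly 1 gene symbol 346 were lower and 19 higher, while DEGs with no symbol were 113 lower and 118 higher.

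The difference between the groups moved with the level of expression. In 20 equal bins of mean level the median of IFOT-IM minus VIVO lay between 0.11 and 0.17 on the log2 scale in each of the 12 lowest bins, and it was -0.36 and -0.31 in the top pair of bins. All 3 IFOT-IM arrays had this slope, and replicate 1 had the steepest, with -0.57 and -0.53 in the top pair of bins, against -0.28 and -0.21 in replicate 2 and -0.25 and -0.21 in replicate 3. The SD of the values on an array was 1.55 in IFOT-IM replicate 1 and 1.64 in replicates 2 and 3, against 1.73 to 1.75 in VIVO. Since genes of high level were mostly lower in IFOT-IM, each gene was also set against genes of the same mean level, by the same fit after cyclic loess normalization over the 12 arrays (level-matched), which brought the medians of all 20 bins to between -0.02 and 0.05. The level-matched fit called 609 DEGs (2.49%), 261 lower (1.07%) and 348 higher (1.43%), and 14.3% of probe sets at any fold, 7.79% lower and 6.55% higher. Counted once per gene, 13.3% changed, 9% lower and 4.29% higher. The share of DEGs that was lower was 42.9% in the level-matched fit and 77.8% on the deposited values. No probe set was called in opposite directions by the 2 fits. Of the DEGs, 343 were shared by both fits in the same direction, 226 lower and 117 higher, and 160 of these carried 1 symbol, 145 lower and 15 higher. Whether the level-dependent difference is a property of the embryos or of the arrays was not tested.

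**Figure D1:**
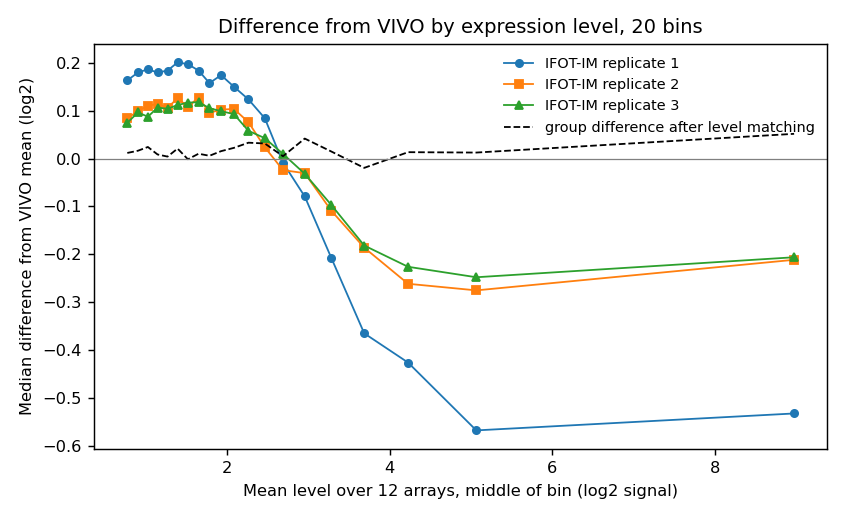
Median difference of each IFOT-IM array from the VIVO mean (log2, vertical axis) in 20 bins of mean level (log2 signal, horizontal axis), for IFOT-IM replicates 1, 2 and 3. The lines start near 0.16 and 0.08 and fall to -0.53 in replicate 1 and -0.21 in replicates 2 and 3, and the dashed line shows the group difference after level matching, between -0.02 and 0.05.

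Among the 41 gene lists counted, cholesterol synthesis, the chain of enzymes from mevalonate to cholesterol that the factor SREBP2 drives, had the highest share of lower genes in the level-matched fit, 73.3%. The lists were written with earlier results of these data known. The study had named steroid biosynthesis for this comparison on these arrays, so the rank is not independent evidence. Of 20 sterol genes listed 15 were tested. Of these 15, 10 fell in IFOT-IM and none rose, against 14.6% of all genes lower. In the level-matched fit 11 fell, against 9% of all genes. For genes of the same level the shares lower were 30.6% and 14.4%. The median over the list was -0.77 before and -0.63 after level matching. MSMO1, the sterol C4 methyl oxidase, read 3.52, 4.43 and 4.44 in IFOT-IM, against 6.69, 6.67 and 6.81 in VIVO, a 6.02-fold lower signal (-2.59 ± 0.21, log2 ± SE, FDR = 2.63e-05). It lay far below VIVO on all 3 arrays, and it was lowest in replicate 1. SQLE, squalene epoxidase and a rate-limiting step, gave 3.72, 4.35 and 4.40 in IFOT-IM, against 6.11, 6.10 and 6.30 in VIVO (-2.01 ± 0.18, FDR = 6.91e-05). CYP51A1, lanosterol demethylase, gave 2.53, 2.56 and 2.23 in IFOT-IM and 4.46, 4.32 and 3.999 in VIVO (-1.82 ± 0.18, FDR = 9.98e-05), and here replicate 3 was the lowest. SC5D and FDFT1, later and earlier steps of the chain, fell by 1.62 and 1.47, and NSDHL fell by 1.42 with an FDR of 8.05e-04. Without replicate 1 the count of sterol genes that fell was again 10, and 8 in the level-matched fit.

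Genes of sterol sensing, uptake and export were counted beside them. Of 20 tested, 8 fell and none rose (40% against 21.2% of genes of the same level), and 7 fell after level matching (35% against 12%). NPC2 and NPC1, which release cholesterol from lysosomes, fell by 1.43 and 1.14 (FDR = 2.71e-04 and 0.00105). INSIG1, which holds SREBP in the ER, fell by 0.75, with 2.21, 2.47 and 2.48 in IFOT-IM and 2.91, 3.46 and 3.06 in VIVO.

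Fatty acid genes came next. Of 27 tested for synthesis, elongation and desaturation, 15 fell (13 level-matched) and none rose, where 28.9% of genes of the same level were lower (13.1% level-matched). FADS1, the delta-5 desaturase of long-chain polyunsaturated fatty acids, read 2.93, 3.64 and 3.77 in IFOT-IM, against 5.75, 5.85 and 5.88 in VIVO (-2.38 ± 0.30, FDR = 4.36e-04). SCD, which makes oleate from stearate, read 5.38, 5.90 and 5.97 in IFOT-IM, against 7.66, 7.75 and 7.83 in VIVO (-1.997 ± 0.16, FDR = 2.59e-05), and a second SCD probe set fell by 1.85. The 2 groups did not overlap for either gene, which was a condition of the rule that named the largest falls. FASN, fatty acid synthase, fell by 1.17 and FADS2, the delta-6 desaturase, by 1.31. In lipid droplet storage and beta oxidation the counts were smaller: 5 of 30 fell (16.7% against 16.4% of genes of the same level) and 2 rose, with 2 and 1 after level matching.

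**Figure D2:**
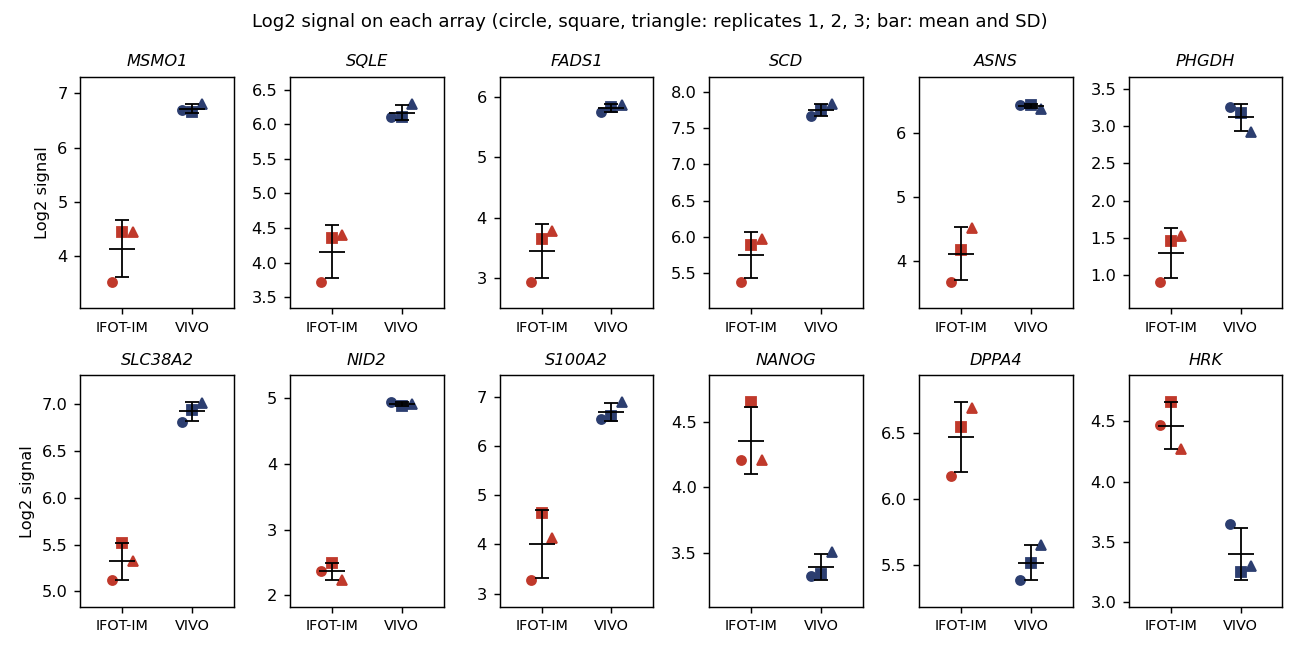
Log2 signal of 12 genes on each IFOT-IM array and each VIVO array, with replicates 1, 2 and 3 as circle, square and triangle and the mean with its SD (n = 3), each panel on its own scale. The IFOT-IM arrays lie below the VIVO arrays for MSMO1, SQLE, FADS1, SCD, ASNS, PHGDH, SLC38A2, NID2 and S100A2 and above them for NANOG, DPPA4 and HRK.

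A second set of falls was in the synthesis of serine and asparagine, which in many cells the factor ATF4 drives when amino acids are short. PHGDH, the first enzyme of serine synthesis, read 0.91, 1.45 and 1.52 in IFOT-IM, against 3.26, 3.18 and 2.92 in VIVO (-1.82 ± 0.19, FDR = 1.69e-04). PSAT1 and PSPH, its other steps, fell by 1.47 and 1.96 (FDR = 9.98e-05 and 8.49e-06). ASNS, asparagine synthetase, read 3.67, 4.17 and 4.51 in IFOT-IM, against 6.45, 6.45 and 6.39 in VIVO, or 4.98-fold lower (-2.32 ± 0.18, FDR = 1.98e-05), and replicate 1 was again the lowest. MTHFD1L and VEGFA also fell, by 1.45 and 1.30. In all, 13 of 28 members fell, against 22.7% of genes of their level, and 10 fell after level matching (35.7% against 12.3%). DDIT3, the stress factor CHOP, was the 1 member that rose and is named here after its values were seen. It read 4.002, 4.17 and 4.06 in IFOT-IM, against 3.58, 3.48 and 3.39 in VIVO (0.60 ± 0.14, FDR = 0.0128). ATF4 itself fell by 0.51 on the deposited values (FDR = 0.0189), and its level-matched value was -0.11 (FDR = 0.586).

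Transporters of amino acids also fell, 13 of 32 with none higher, against 20.2% of genes of their level, and 10 after level matching (31.2% against 10.7%). SLC38A2, the sodium-coupled carrier SNAT2, read 5.12, 5.51 and 5.33 in IFOT-IM, against 6.82, 6.95 and 7.01 in VIVO (-1.60 ± 0.16, FDR = 1.35e-04). SLC7A5, the leucine carrier LAT1, read 3.68, 3.69 and 3.64 in IFOT-IM and 4.98, 4.95 and 4.93 in VIVO (-1.28 ± 0.10, FDR = 2.61e-05), with very little spread in either group. SLC1A4 fell by 1.10 and SLC43A2 by 1.21. Among aminoacyl-tRNA synthetases 13 of 17 fell, against 42.9% of genes of their level, and 7 after level matching (41.2% against 17.3%) with 1 higher. GARS1, which charges tRNA with glycine, read 3.72, 3.96 and 4.01 in IFOT-IM, against 5.55, 5.46 and 5.53 in VIVO (-1.61 ± 0.12, FDR = 1.87e-05).

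In the secretory route, which folds, modifies and sorts proteins, the ER and Golgi lists were counted first. Of 51 ER genes 33 fell (64.7% against 40.9% of genes of the same level), and 18 after level matching (35.3% against 17.5%). Without IFOT-IM replicate 1 these counts were 24 and 10. SPCS3, a subunit of the signal peptidase, read 1.88, 3.11 and 3.17 in IFOT-IM, against 4.69, 4.73 and 4.75 in VIVO (-2.003 ± 0.27, FDR = 7.21e-04), and replicate 1 lay 1.23 from the nearer of the other IFOT-IM arrays. For Golgi glycosylation 16 of 29 fell and 12 after level matching, with none higher in either fit and 26% and 12.3% for genes of the same level. GALNT1, which starts O-glycosylation, fell by 1.52 and TMEM165, a Golgi ion carrier, by 1.40. In the wider secretory route DPM1, a dolichol mannosyl transferase subunit, fell by 1.30. Of 44 lysosome, autophagy and mTORC1 genes 25 fell (56.8% against 34% of genes of the same level) and 1 rose. After level matching 14 fell (31.8% against 15.7%) and 4 rose, where 8.70% of genes of the same level rose. Without replicate 1 the counts of lower genes were 21 and 8. CLN3, the lysosomal membrane protein of Batten disease, read 3.35, 3.87 and 3.62 in IFOT-IM, against 5.42, 5.31 and 5.30 in VIVO (-1.73 ± 0.15, FDR = 5.89e-05). MCOLN2, a lysosomal cation channel, fell by 1.40. In vesicle traffic 20 of 49 fell (40.8% against 31.8% of genes of the same level) and 1 rose, and after level matching 12 fell (24.5% against 14.5%) and 2 rose. BET1, a SNARE of ER to Golgi traffic, was at -1.499 ± 0.20 (FDR = 6.61e-04).

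Chaperones and ubiquitin enzymes were counted apart from the secretory route. Of 34 heat shock chaperones 18 fell (52.9% against 38.1% of genes of the same level), and 11 after level matching (32.4% against 16.2%) with 2 higher, and without replicate 1 the counts lower were 11 and 7. Of 33 ubiquitin E1 and E2 enzymes 15 fell (45.5% against 38.8% of genes of the same level), and 10 after level matching (30.3% against 17%) with 1 higher, which became 11 and 4 lower without replicate 1. UBE2B, an E2 of DNA damage tolerance, fell by 1.44 (FDR = 2.92e-04).

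**Figure D3:**
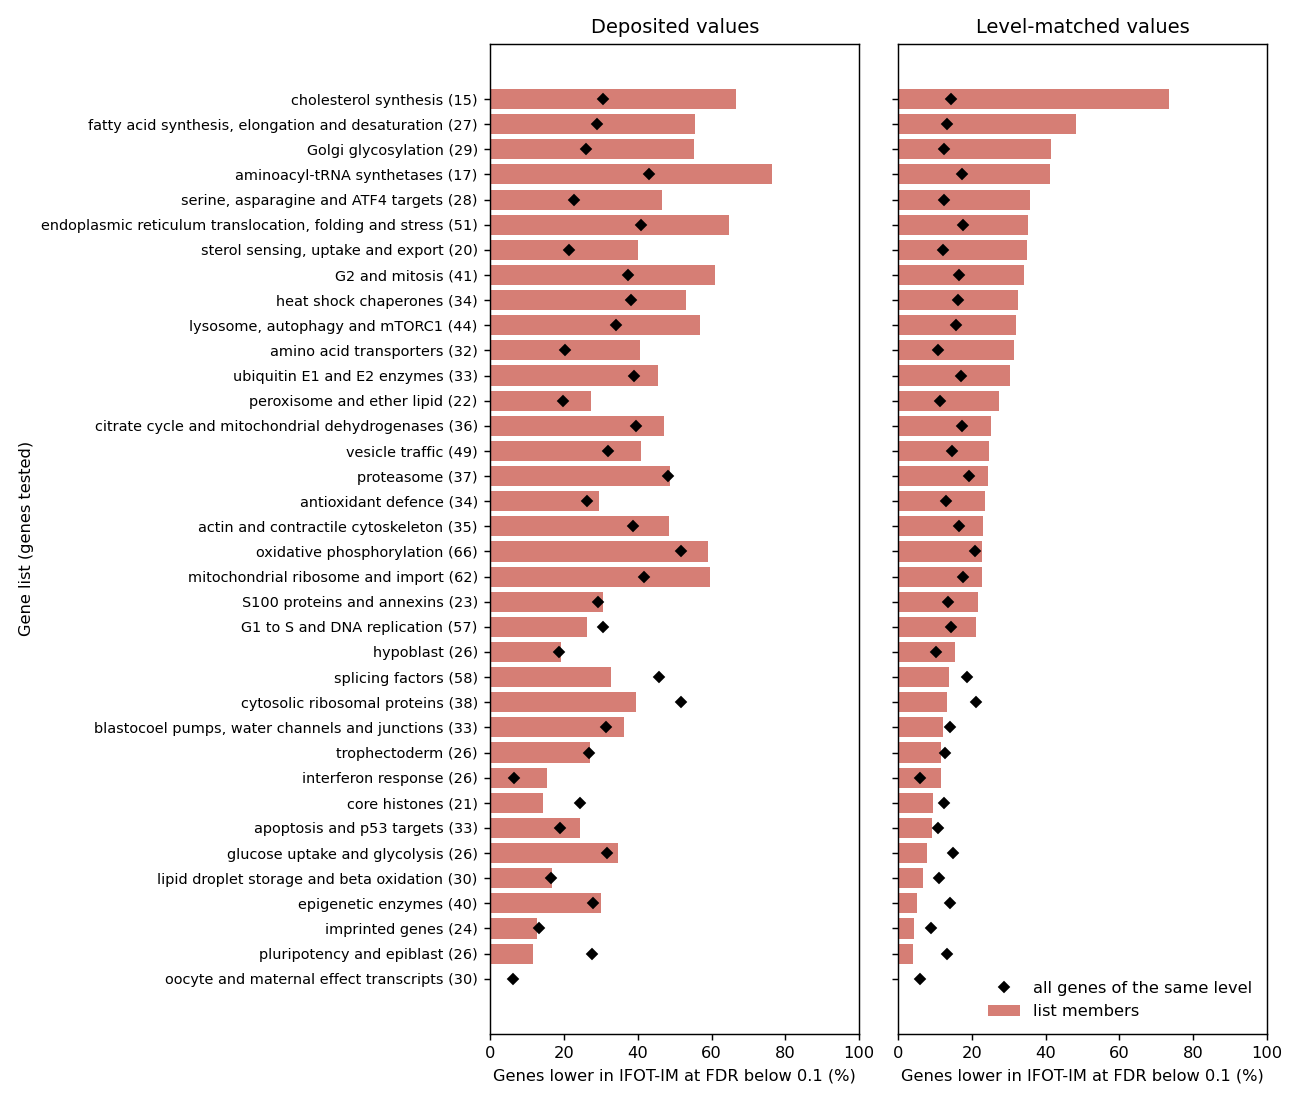
Percent of the tested members of each gene list that were lower in IFOT-IM at an FDR below 0.1 (horizontal axis, bars) on the deposited values and the level-matched values, with the number tested in brackets and diamonds for the share among all genes of the same level. Cholesterol synthesis reaches 66.7% and 73.3%, while splicing factors and cytosolic ribosomal proteins lie to the left of their diamonds in both panels.

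Several large groups had level-matched shares nearer to those of genes of their level. Of 66 genes of oxidative phosphorylation 39 fell (59.1%, and 51.8% for genes of the same level), and after level matching 15 fell (22.7%, against 20.8%). Without replicate 1 the counts were 25 and 8. Of 37 proteasome genes 18 fell (48.6% against 48.2% of genes of the same level) and 9 after level matching (24.3% against 19.1%). Of 58 splicing factors 19 fell (32.8% against 45.7% of genes of the same level). After level matching 8 fell (13.8% against 18.6%) and 9 rose, where 10.5% of genes of the same level rose. Of 38 cytosolic ribosomal proteins 15 fell (39.5% against 51.6% of genes of the same level; 8 genes without replicate 1). After level matching 5 fell (13.2% against 20.9%) and 6 rose, where 13.4% of genes of the same level rose. RPS12 rose in both fits, with 8.05, 8.28 and 8.31 in IFOT-IM and 7.65, 7.58 and 7.54 in VIVO (0.62 ± 0.12, FDR = 0.00441). Within the mitochondrion DLD, the shared lipoamide dehydrogenase subunit of the pyruvate and oxoglutarate complexes, had a larger fall, with 4.12, 4.47 and 4.29 in IFOT-IM, against 5.96, 5.90 and 5.90 in VIVO (-1.63 ± 0.12, FDR = 1.87e-05). MRPL32, a mitochondrial ribosomal protein, fell by 1.45. Of 62 genes of the mitochondrial ribosome and import 37 fell (59.7% against 41.7% of genes of the same level) and 14 after level matching (22.6% against 17.5%), and without replicate 1 the counts were 21 and 7. Of 36 citrate cycle and mitochondrial dehydrogenase genes 17 fell (47.2% against 39.6% of genes of the same level) and 9 after level matching (25% against 17.1%), and 11 and 5 without replicate 1. Without VIVO replicate 2 and without VIVO replicate 3 the deposited count was 10 and 11. In glucose uptake and glycolysis 9 of 26 fell (34.6% against 31.5% of genes of the same level) and 2 after level matching (7.69% against 14.8%). SLC2A1, the glucose carrier GLUT1, read 4.40, 4.83 and 5.15 in IFOT-IM, against 5.34, 5.68 and 5.72 in VIVO (-0.79 ± 0.18, FDR = 0.0139), and its level-matched value was -0.41 (FDR = 0.0966). The smaller peroxisome list lay farther above its level after level matching. In it 6 of 22 fell in each fit (27.3% against 19.6% of genes of the same level, and 27.3% against 11.4% level-matched). Among them was AGPS, of ether lipid synthesis, by 1.19.

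Of 41 genes of G2 and mitosis 25 fell and none rose (37.3% for genes of the same level), and 14 fell after level matching (16.3%). Without replicate 1 the counts were 18 and 12. CDK1, the kinase that starts mitosis, read 2.53, 2.93 and 2.97 in IFOT-IM, against 3.92, 3.83 and 4.08 in VIVO (-1.14 ± 0.17, FDR = 0.00122), and PTTG1, securin, fell by 1.36. For the entry into S phase and DNA replication 15 of 57 fell (26.3% against 30.4% of genes of the same level) and 2 rose, and 12 fell after level matching (21.1% against 14.4%; 6 without replicate 1). CCNE2, cyclin E2, fell by 1.43 (FDR = 1.11e-04).

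Of 35 actin and contractile cytoskeleton genes 17 fell (48.6% against 38.6% of genes of the same level), and 8 after level matching (22.9% against 16.3%; 4 without replicate 1). Blastocoel pumps, water channels and junctions, which fill and seal the cavity, had shares near those of their level, with 12 of 33 lower (36.4% against 31.4% of genes of the same level) and 4 after level matching (12.1% against 14%). ATP1B3, a beta subunit of the sodium pump, read 5.57, 5.99 and 5.91 in IFOT-IM and 6.88, 6.79 and 6.94 in VIVO (-1.05 ± 0.14, FDR = 5.37e-04, level-matched -0.65, FDR = 0.00178). Epigenetic enzymes gave 12 of 40 lower (30% against 27.9% of genes of the same level), and after level matching 2 lower (5% against 14.1%) and 2 higher. The deposited count was 6 or 7 without IFOT-IM replicate 1 or any 1 VIVO array. EED, a Polycomb subunit, gave -0.83 ± 0.14 (FDR = 0.00283) and DNMT1, the maintenance methyltransferase, -0.57 ± 0.13 (FDR = 0.0116). Of 24 imprinted genes 3 fell (12.5% against 13.1% of genes of the same level) and 1 rose, with GRB10, a brake on insulin signalling, at -0.57 ± 0.16. After level matching 1 imprinted gene fell (4.17% against 8.89%) and 3 rose, where 3.82% of genes of the same level rose.

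Genes of the first lineages moved in both directions. In whole blastocysts fewer cells of a lineage and less RNA per cell cannot be told apart. In the epiblast NANOG, the pluripotency factor, rose, with 4.21, 4.65 and 4.21 in IFOT-IM, against 3.32, 3.34 and 3.50 in VIVO (0.97 ± 0.18, FDR = 0.00443), and level-matched it rose by 1.26. DPPA4, a chromatin factor of pluripotent cells, rose on both of its probe sets, by 0.88 and 0.95, while POU5F1 (-0.32 ± 0.17, FDR = 0.24) and SOX2 (-0.34 ± 0.14, FDR = 0.117) did not pass. Of 26 pluripotency genes 3 fell (11.5% against 27.5% of genes of the same level) and 3 rose. After level matching 1 fell (3.85% against 13.2%) and 4 rose (2 without replicate 1), where 7.18% of genes of the same level rose. In the trophectoderm CDX2, its defining factor, fell in both fits, with 1.86, 1.99 and 2.13 in IFOT-IM, against 2.31, 2.98 and 3.02 in VIVO (-0.78 ± 0.21, FDR = 0.0272), and without replicate 1 its FDR was 0.102. Over the trophectoderm list the shares lower were near those of its level, with 7 of 26 lower (26.9% against 26.7% of genes of the same level) and 2 higher. After level matching 3 were lower (11.5% against 12.7%) and 2 higher, where 6.46% of genes of the same level were higher. The deposited count of lower genes was 3 without IFOT-IM replicate 1, 4 without VIVO replicate 2 and 2 without VIVO replicate 3. GATA3, TEAD4 and TFAP2C fell by 0.72, 0.59 and 0.44 on the deposited values, but their level-matched FDR was 0.149, 0.407 and 0.863. KRT8 and KRT18 gave -0.02 and -0.36 and did not pass. In the hypoblast NID2, nidogen 2 of the basement membrane, read 2.38, 2.49 and 2.23 in IFOT-IM, against 4.94, 4.88 and 4.91 in VIVO (-2.54 ± 0.16, FDR = 8.49e-06), a 5.83-fold lower signal with little spread among the 3 replicates. Of 26 hypoblast genes 5 fell (19.2% against 18.5% of genes of the same level; 3 without IFOT-IM replicate 1 or without VIVO replicate 3) and 1 rose. After level matching 4 fell (15.4% against 10.3%) and 2 rose, where 5.30% of genes of the same level rose. APOA1, an apolipoprotein, fell by 1.27. GATA4, GATA6, SOX17 and PDGFRA, the defining factors, gave 0.46, -0.32, 0.36 and 0.04. GATA6 and GATA4 passed on the deposited values (FDR = 0.0938 and 0.0595), and neither passed after level matching.

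Outside these groups the largest falls by the naming rule were of S100A2, CMC2, ASCC1, ACTC1, TMEM59 and TPT1. S100A2, a calcium-binding protein, read 3.27, 4.64 and 4.13 in IFOT-IM, against 6.56, 6.62 and 6.90 in VIVO (-2.68 ± 0.25, FDR = 8.82e-05). CMC2, a mitochondrial assembly factor, fell by 2.25 on one probe set and by 1.13 on its brighter one, and ASCC1 by 2.15. ACTC1, cardiac actin, fell by 2.06, and its replicate 1 lay 1.14 from the nearer of the others, as replicate 1 of TPT1 lay 1.17 from them. Over the S100 proteins and annexins 7 of 23 fell (30.4% against 29.2% of genes of the same level) and 2 rose. After level matching 5 fell (21.7% against 13.5%) and 3 rose, where 7.44% of genes of the same level rose. CD59, which guards cells against complement, fell by 1.43, and CAT, catalase, by 1.20. The naming rule also took 28 symbols from the study's text, most of them from its list of genes shared by its comparisons, together with 3 sterol genes. Of these, 26 matched a probe set with exactly that 1 symbol, and these 26 fell on the deposited values, while SPIC and PLAC8 were not matched in this way and have no value here. The study chose these genes on these arrays, so this is not independent evidence of their direction. SLC38A9, an arginine sensor of the lysosome, fell by 0.62 on its brighter probe set, where the level-matched value was -0.24 (FDR = 0.333), and its dimmer probe set fell by 0.97 with a level-matched call.

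The rises were of other kinds of probe set. Only 13 genes passed the rule for naming on the deposited values, and 9 of these were microRNA precursors. MIRLET7A-1, a let-7 precursor, read 6.15, 6.54 and 6.37 in IFOT-IM, against 5.08, 4.65 and 4.96 in VIVO (1.46 ± 0.16, FDR = 1.94e-04), and MIR2380 and MIR2405 rose by 1.23 and 1.14. Another 3 were olfactory receptor symbols, of which OR8B1S (FDR = 0.121) and OR4F58B (FDR = 0.144) no longer passed without replicate 1. The remaining one was HRK, a BH3-only activator of cell death, with 4.47, 4.66 and 4.27 in IFOT-IM and 3.65, 3.25 and 3.30 in VIVO (1.06 ± 0.19, FDR = 0.0034). In its list, apoptosis and p53 targets, 8 of 33 fell (24.2% against 18.8% of genes of the same level; 4 without replicate 1) and 3 rose. After level matching 3 fell (9.09% against 10.8%) and 1 rose, where 5.26% of genes of the same level rose. Of 363 probe sets with a microRNA symbol 73 rose and 4 fell, against 7.95% of all probe sets higher, and after level matching 77 rose (21.2%, against 6.55%) and 4 fell. What these probe sets detect, precursor or host transcript, was not tested.

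**Figure D4:**
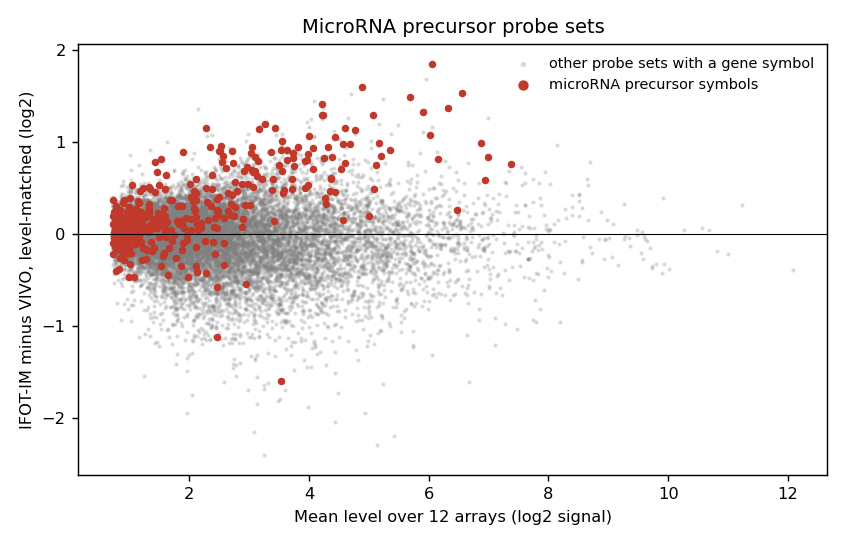
Level-matched log2 difference (IFOT-IM minus VIVO, vertical axis) against the mean log2 signal over 12 arrays (horizontal axis) for probe sets with a microRNA symbol (red) and other probe sets with a gene symbol (grey). Most red points with a mean above 3 lie above 0, and MIRLET7A-1 is the highest at 1.85.

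Markers of other cells that a flushed pool could hold had low median levels. The summed linear signal of 18 cumulus and granulosa markers was 57.7 to 64.0 in IFOT-IM and 67.9 to 76.1 in VIVO, which do not overlap. A sum weighs bright members most, and HSD3B1, which fell, had the highest mean of these markers in IFOT-IM (3.08). The median difference over the list was 0.124, against 0.142 for probe sets of the same level, and 0.015 after level matching. The 12 leukocyte markers summed to 45.2 to 47.7 in IFOT-IM and 41.4 to 43.4 in VIVO. Of the 18 cumulus markers 2 fell, HSD3B1 by 1.44 (FDR = 4.36e-04) and CYP11A1 by 0.43, both steroidogenic enzymes that human trophoblast also makes, and GREM1, named here after its value was seen, rose on the deposited values only. No leukocyte or sperm marker passed the test, though the sperm sums of 24.8 to 25.1 in IFOT-IM and 22.5 to 22.9 in VIVO did not overlap either. For the sperm list the median difference was 0.147, against 0.141 for probe sets of the same level, and -0.0003 after level matching. The level-matched median of the leukocyte list was 0.069. Sperm, oviduct and erythrocyte markers had median levels of 1.62, 1.53 and 1.85. The part of these markers in the results was not tested.

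Replicate 1 of IFOT-IM departed from replicates 2 and 3. Over the 24415 probe sets tested its mean correlation with the other IFOT-IM arrays was 0.966, and that of replicates 2 and 3 with each other was 0.976. Over all probe sets replicate 1 lay more than 1 log2 unit outside the range of the other 2 IFOT-IM arrays for 290 probe sets, against 134 for replicate 2 and 173 for replicate 3. After level matching the counts were 258, 135 and 172. Among the 492 DEGs that were lower, replicate 1 was the lowest of the 3 for 364, and replicates 2 and 3 for 64 each. It was also the highest of the 3 for 68 of the 140 higher DEGs, where replicates 2 and 3 were for 39 and 33. The median difference of the 492 lower DEGs from VIVO was -1.48 in replicate 1, -1.09 in replicate 2 and -1.08 in replicate 3. After level matching the medians over the 261 lower DEGs were -1.36, -1.18 and -1.13, with replicate 1 the lowest for 158. Among the 348 higher DEGs of that fit replicate 1 was the highest for 255, and the medians were 1.52, 1.15 and 1.04. The study's sample table gives the RNA of this pool a lower concentration and a higher integrity number than those of replicates 2 and 3, and the part of either in the departure was not tested.

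**Figure D5:**
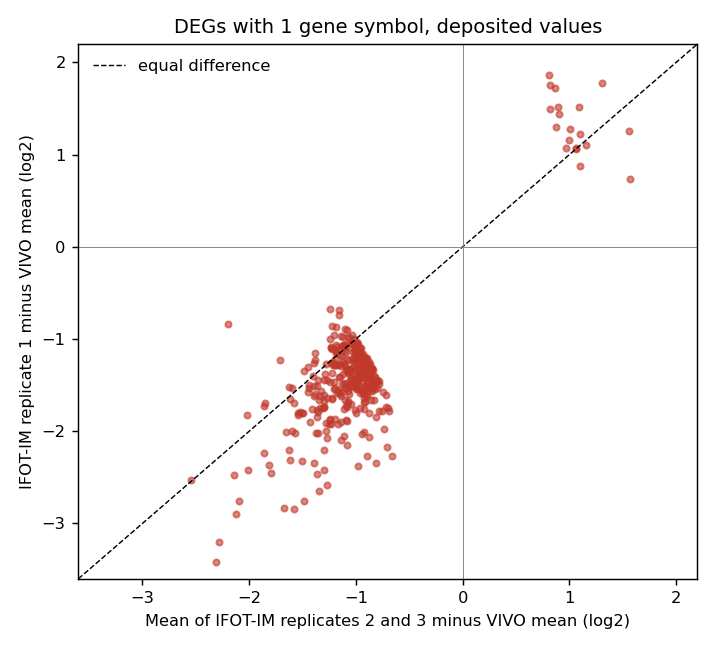
Difference of IFOT-IM replicate 1 from the VIVO mean (vertical axis, log2) against the mean difference of replicates 2 and 3 (horizontal axis, log2) for the 365 DEGs with 1 gene symbol. Most points lie below the dashed line of equal difference on the left side, and 1 point far above it is SSLP1.

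The 8 DEGs in which replicate 1 lay farthest from the nearer of the others were SERINC1, LOC783509, RHOQ, LOC618289, GXYLT2, SPCS3, MRPS36 and SSLP1. SERINC1, a membrane protein named as a serine incorporator, read 1.56, 3.25 and 3.10 in IFOT-IM, against 3.80, 3.70 and 4.004 in VIVO, and without replicate 1 it gave -0.66 (FDR = 0.137). It was the one of the 8 that lost its FDR, while MRPS36, RHOQ, LOC783509 and GXYLT2 kept the FDR but not the 2-fold change, at -0.89, -0.98, -0.81 and -0.74. For SSLP1 replicate 1 was nearer to VIVO than the others, with 4.25, 3.05 and 2.73 in IFOT-IM, against 5.05, 4.997 and 5.21 in VIVO. Without replicate 1 the DEGs numbered 428 in place of 632, of which 307 were lower, and 380 of the 632 were DEGs again in the same direction. Without IFOT-IM replicate 2 or replicate 3 in its place the DEGs numbered 765 and 847. In the level-matched fit 427 were called without replicate 1 in place of 609, and 689 and 768 without replicate 2 or replicate 3. Of the counts of lower and of higher members in each gene list, 26 moved by over 1.5 times without replicate 1 on the deposited values and 56 did not. DEGs in both fits, with and without replicate 1, numbered 240, 165 lower and 75 higher, and 117 of them had 1 symbol, 111 lower and 6 higher. MSMO1 (-2.29), NID2 (-2.55), ASNS (-2.09), SCD (-1.81) and PHGDH (-1.63) were lower by more than 2-fold without replicate 1.

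Set directly against the other groups, IFOT-IM differed by 0 DEGs from IFOT-M and by 206 from VITRO. No probe set was a DEG of IFOT-IM against IFOT-M with limma, and the smallest FDR was 0.321. A raw p below 0.05 was found for 1855 of the 24415 probe sets tested, and a share of 0.05 would pass with no difference. An unmoderated linear model called 0, and a fit of these 6 arrays alone called 2, both lower. With 3 arrays a group this does not show that the 2 groups are alike. The difference of IFOT-IM from IFOT-M was -0.74 for MSMO1, -0.53 for SQLE, 0.52 for NANOG and -0.08 for NID2. Against VITRO 206 probe sets were DEGs (0.844%), 60 lower (0.246%) and 146 higher (0.598%), and after level matching 156 (0.639%), 90 lower (0.369%) and 66 higher (0.27%). At any fold 8.67% changed, 2.81% lower and 5.86% higher, and after level matching 5.48%, with 2.83% lower and 2.65% higher. Without IFOT-IM replicate 1 the DEGs against VITRO numbered 340. The sterol genes were lower in IFOT-IM than in VITRO too, in 10 of 15 cases in each fit. MSMO1 differed by -1.81 (FDR = 0.00125), SQLE by -1.76 and CYP51A1 by -1.22. FADS1 and SCD differed by -1.29 and -1.25, and S100A2 by -1.48. NID2 differed by -0.88 (FDR = 0.0119). For ASNS the difference was -0.54, with a level-matched value of -0.84 that passed, and for PHGDH it was -0.42 (FDR = 0.226). CMC2, ACTC1, NANOG and HRK gave -0.04, 0.11, -0.15 and -0.32 and passed in neither fit. MIRLET7A-1 gave -0.27 (FDR = 0.349), and after level matching it passed as lower, at -0.56. SLC7A5 was 0.54 higher than in VITRO (FDR = 0.0127), the reverse of its difference from VIVO, and did not pass after level matching. Splicing factors were higher in IFOT-IM than in VITRO for 22 of 58 genes, and for 7 after level matching, where 5.86% and 2.65% of all probe sets were higher. These genes have a high level (median 4.66), and the SD of the values was 1.50 to 1.54 on the VITRO arrays. Shares for genes of the same level were not counted against VITRO, so the counts are not particular to splicing factors. The comparisons with VIVO and with VITRO share the IFOT-IM arrays. DPPA4 was higher in IFOT-IM than in VITRO on both probe sets, by 0.61 and 1.29, and after level matching only the second passed.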

How the data were processed

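Pooled bovine blastocyst RNA was hybridised to 12 Affymetrix Bovine 1.0 ST arrays, 3 for each of 4 groups. For the deposited log2 values the authors ran RMA in Expression Console (background correction and quantile normalization), and that the scale is log2 was read from the range of the values. Array medians and spreads still differed in the deposited table. Of 26773 probe sets the 2358 with the lowest mean were left out. Groups follow the sample titles. limma 3.58.1 in R 4.3.3 fitted all 4 groups (8 residual degrees of freedom, two-sided, Benjamini-Hochberg), on deposited values and after cyclic loess (level-matched). Genes were named from probe sets with 1 symbol and counted once by the brightest. The rule for named genes took the 15 largest rises and falls (10 level-matched) among DEGs whose arrays did not overlap, 28 symbols from the study, up to 6 members per list, and the 8 DEGs where replicate 1 stood farthest off, all fixed, like the gene lists, with earlier results of these data known. Genes named outside the rule are lineage markers, defining members or were chosen after their values were seen. Same-level shares are averages over 20 bins of mean level. The fits were tested on simulated data. Alternatives were other normalizations, filters, moderation, array weights, RNA integrity, the replicate block, other thresholds and leaving out each IFOT-IM or VIVO array. The number of arrays limits the precision. Sequences and genome coordinates were not used here.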

Additional observations from a re-analysis of the deposited data

How the results depend on the processing

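The number of DEGs in IFOT-IM against VIVO stayed within 1.5 times of 632 in the alternatives run except with 1 probe set per gene symbol (354). Fewer probe sets were tested there. The level-matched count likewise stayed within 1.5 times of 609 except with 1 probe set per gene symbol (206). The number was 492 with quantile normalization and 656 with only these 6 arrays. The DEGs themselves were not all the same: 328 of the 632 were among those 492, and 622 were among those 656. The share of DEGs that were lower was 77.8% on the deposited values, 42.9% after cyclic loess and 46.3% after quantile normalization. The number past an FDR of 0.1 was 5023, and it was 2933 with quantile normalization, 3338 at an FDR below 0.05 and between 2924 and 4811 with 1 IFOT-IM or VIVO array left out. The lowest was without IFOT-IM replicate 1, and without VIVO replicate 2 and without VIVO replicate 3 it was 3236 and 3054. In the level-matched fit 3501 probe sets passed, and 2263 without IFOT-IM replicate 1 (chosen after seeing the data). The DEGs against IFOT-M numbered 0 to 1 with 1 IFOT-IM or VIVO array left out, the single call without VIVO replicate 3, and 2 in a fit of only the 6 arrays compared, an alternative added after seeing the data. Against VITRO they numbered 181 to 340 with such an array left out, 340 without IFOT-IM replicate 1. The cause was not tested. Samples with the same replicate number did not deviate together, with correlations of their deviations of 0.08, 0.01 and 0.06, so the numbers were not taken to pair the arrays. With the replicate number as a block there were 637 DEGs, 625 of them among the 632, and 611 level-matched. Of 249 named probe sets, 5 lost their call under the replicate block, 45 after cyclic loess, 50 after quantile normalization and 37 without IFOT-IM replicate 1, and none reversed. Among the counts of lower and higher members per gene list, the number that moved by over 1.5 times was 26 without IFOT-IM replicate 1, 22 without VIVO replicate 3, and 8 to 17 without each of the others. The number of bins moved a named gene's difference from its level by at most 0.05 (10 or 40 bins in place of 20).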

Other observations

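Of 26 interferon response genes 4 were lower in IFOT-IM (15.4% against 6.41% of genes of the same level) and 3 higher, where 5.91% of all genes were higher. After level matching 3 were lower (11.5% against 5.92%) and 1 higher. Without IFOT-IM replicate 1 the deposited counts were 0 and 1. Core histones moved both ways, with 3 of 21 lower (14.3% against 24.2% of genes of the same level) and 4 higher. Without IFOT-IM replicate 1 or VIVO replicate 3, 2 were higher. After level matching 2 histones were lower (9.52% against 12.4%) and 3 higher, where 7.22% of genes of the same level were higher. H4C2 rose on its brighter probe set by 0.56, or 0.94 after level matching. Antioxidant genes fell in 10 of 34 cases (29.4% against 26.2% of genes of the same level) and rose in 1. After level matching 8 fell (23.5% against 12.9%) and 3 rose (6.88% of genes of the same level rose), or 5 and 0 without IFOT-IM replicate 1. Among those that fell in both fits were CAT and NFE2L2, the factor that drives the antioxidant response, which fell by 1.18. Oocyte and maternal effect transcripts gave 0 of 30 lower, against 6.22% of genes of the same level, and 3 higher. After level matching 1 was higher, where 2.39% of genes of the same level were. Without IFOT-IM replicate 1 none was called in either fit.

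Families defined by symbol after seeing the data were counted in the level-matched fit, where 6.55% of all probe sets rose and 7.79% fell. Olfactory receptor symbols rose in 18 of 529 probe sets (3.40%) and fell in 2. LOC symbols rose in 64 of 861 (7.43%), near the share of all probe sets, and fell in 25. Probe sets with no symbol rose in 790 of 6221 (12.7%) and fell in 239. With a mean above 3, microRNA symbols rose in 59 of 81 probe sets (72.8%), probe sets with no symbol in 608 of 1660 (36.6%), and all probe sets in 1126 of 6528 (17.2%).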
